A study of Mus musculus with 16 samples.

Results

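The genes described here are the histone genes of the H1, H2A, H2B and H4 families whose symbols carry the cluster nomenclature (H1f, H2ac, H2bc, H3c or H4c followed by a digit) and that had a probe set annotated to 1 gene symbol. They were taken by name, by a rule that uses no values. The set itself was chosen with earlier results of these data known. The rule found 29 genes of the 22180 measured, on 30 probe sets. These were 8 linker histone genes (H1), 6 genes of H2A, 8 of H2B and 7 of H4. It found 0 genes of H3, because the 12 H3 symbols of the arrays occurred only on probe sets shared by several histone genes. The name clustered held for 26 of the 29 genes, which lie on mouse chromosomes 13 (21 genes) and 3 (5 genes). The other 3, all linker histones, lie on chromosomes 6 (H1f8 and H1f10) and 15 (H1f7).

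Expression was measured on 16 single-colour arrays of RNA from group 2 innate lymphoid cells (ILC2s), lymphocytes of barrier tissues that make type 2 cytokines and answer to the alarmin IL-33. Lung samples are labelled as C57BL/6J, and the labels name no engineered allele; the strain of the node samples is not stated in the labels used here. The naive lung group had 2 arrays. IL-33-treated mice gave lung ILC2s 4 days (3 arrays), 2 weeks (3 arrays) and 4 months (2 arrays) after the start of treatment. They also gave ILC2s of the mediastinal lymph node (mLN), into which the lung drains, at day 4 (3 arrays) and at week 2 (3 arrays). There were no naive node cells among the samples, so the node could be compared only with the treated lung and with itself over time. The labels used here do not state the age of the mice, the route of IL-33, the sort gates or whether mice were pooled. The arrays are labelled as biological replicates, and their small number limits the precision of every value below.

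Histone proteins package DNA: a core of H2A, H2B, H3 and H4 carries the wrapped DNA, and a linker histone H1 sits where the DNA enters and leaves. Replication-dependent histone genes stand in large clusters and are transcribed mainly in S phase, when newly copied DNA needs new nucleosomes. Most of their messages end in a conserved stem loop, bound by the protein Slbp, in place of a poly(A) tail. A few members of the families are made outside S phase or only in germ cells.

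The promoters of 5 genes called lower in the node by week 2 are shown here, chosen with their values known: H2ac10 was called in 5 comparisons, H1f5, H2ac15 and H2bc12 in 4 each and H4c9 in 3. Their calls did not all fall in the same comparisons. Each line gives the 250 bases before the annotated start of transcription, from RefSeq on build GRCm38.p6, written 5′ to 3′ on the gene's own strand. Capitals mark 4 motifs searched on both strands and at any position: TATAAA (the letters of a TATA box), CCAAT (bound by NF-Y), ATTTGCAT (the octamer bound by Pou2f1) and AAACACA (the H1 box). A motif on the other strand appears as its reverse complement, so ATTGG is CCAAT and TTTATA is TATAAA, and none of the 4 motifs contains another.
H1f5, chr13:21780626-21780875, minus strand: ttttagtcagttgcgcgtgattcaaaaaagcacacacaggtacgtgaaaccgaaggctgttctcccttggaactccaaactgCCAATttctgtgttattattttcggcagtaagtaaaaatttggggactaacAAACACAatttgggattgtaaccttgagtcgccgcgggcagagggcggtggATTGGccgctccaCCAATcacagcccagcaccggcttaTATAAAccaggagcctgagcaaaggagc
H2ac10, chr13:23533625-23533874, plus strand: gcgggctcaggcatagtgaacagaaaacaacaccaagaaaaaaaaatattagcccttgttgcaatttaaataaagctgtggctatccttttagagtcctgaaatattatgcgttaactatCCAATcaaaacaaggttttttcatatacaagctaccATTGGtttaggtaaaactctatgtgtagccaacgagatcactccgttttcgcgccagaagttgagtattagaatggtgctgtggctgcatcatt
H2ac15, chr13:21753913-21754162, minus strand: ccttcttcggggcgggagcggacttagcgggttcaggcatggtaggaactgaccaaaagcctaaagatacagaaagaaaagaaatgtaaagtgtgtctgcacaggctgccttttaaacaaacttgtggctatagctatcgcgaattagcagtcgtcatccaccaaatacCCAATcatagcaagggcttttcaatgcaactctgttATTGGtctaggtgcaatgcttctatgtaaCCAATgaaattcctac
H2bc12, chr13:22035571-22035820, plus strand: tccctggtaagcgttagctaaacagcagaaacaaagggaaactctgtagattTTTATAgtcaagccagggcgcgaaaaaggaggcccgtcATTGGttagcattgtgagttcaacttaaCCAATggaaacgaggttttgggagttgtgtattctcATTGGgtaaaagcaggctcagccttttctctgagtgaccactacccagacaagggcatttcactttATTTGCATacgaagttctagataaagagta
H4c9, chr13:22041363-22041612, minus strand: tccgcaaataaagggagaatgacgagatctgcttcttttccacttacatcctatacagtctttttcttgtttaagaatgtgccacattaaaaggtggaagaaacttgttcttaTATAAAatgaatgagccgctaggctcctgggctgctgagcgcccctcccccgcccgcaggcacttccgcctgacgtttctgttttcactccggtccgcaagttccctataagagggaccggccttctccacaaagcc

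Over the full window of 300 bases, from 250 before to 50 after the start, 27 of the 29 genes had a promoter in the table. The letters TATAAA were present in 16 of the 27 (59.3%), against 14.2% of 27025 promoters of all genes. Neither position nor strand was required, and the first site lay anywhere from -212 (H2bc22) to 41 (H4c1) relative to the start. A site counted here is thus not shown to be that gene's TATA box. CCAAT was present in 20 (74.1%), against 37.9% of all promoters, and it was found in all 6 H2A and all 7 H2B promoters but in 1 of 6 H4 promoters. The octamer occurred in 5 of 7 H2B and 3 of 6 H2A promoters and in 0 of the H1 and H4 promoters, and in 1.75% of all promoters. The H1 box was found in 4 of 8 H1 promoters and in 7 of the 27 (25.9%), against 7.14% of all promoters. These are counts of letters in a window, not of bound sites. The windows of H2ac1 and H2bc1 share 220 bases and those of H2ac12 and H2bc12 share 277, so a site there counts for both genes. This holds for the octamers of these genes. H2ac12 and H2bc12, whose promoters run in opposite directions over 277 shared bases, had 1 probe set each of their own. That of H2ac12 stayed between 1.09 and 1.97 on all 16 arrays, at percentile 0.8 of the gene means. So low a signal may be background, and no output of H2ac12 can be read from it. The probe set of H2bc12 ranged from 2.06 to 8.03, and the levels of the 2 genes are not compared. Both symbols are also listed on shared probe sets, from which no gene can be named.

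Signals are given as the deposited log2 values, on which a difference of 1 is a doubling, and a level is compared only between arrays for the same gene. A change is the difference between 2 group means of log2 signal, given with limma's moderated standard error (SE). That SE uses 1 spread per gene shared by all 6 groups, so it does not measure the spread of a single group. A gene was called where its p, adjusted by Benjamini-Hochberg over 22180 genes, was under 0.05. The naive and 4-month arrays had a narrower interquartile range of signal (2.05 to 2.47) than the other 12 (2.85 to 3.07). Within the naive and 4-month groups the arrays also correlated less (0.937 and 0.947) than in the other groups (0.977 or more). The mean of 10 ILC2 markers was between 8.94 and 9.61 on every array, among them the lineage factor Gata3 and the cytokine genes Il5 and Il13. The mean of 10 T cell markers was 6.73 to 6.86 in naive lung, higher than on the remaining 14 arrays (5.12 to 5.45). The mean of 12 macrophage markers was 6.38, 6.52 and 4.89 on the day 4 lung arrays, 4.66, 4.36 and 5.84 on the week 2 lung arrays and 3.95 to 4.33 in the node. Of the 29 histone genes, 21 reached a group mean of at least 3.58, the 40th percentile of all values, and the other 8 were dim in every group. In bulk RNA, fewer cells that express a gene and less of its RNA per cell cannot be told apart.

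**Figure D1:**
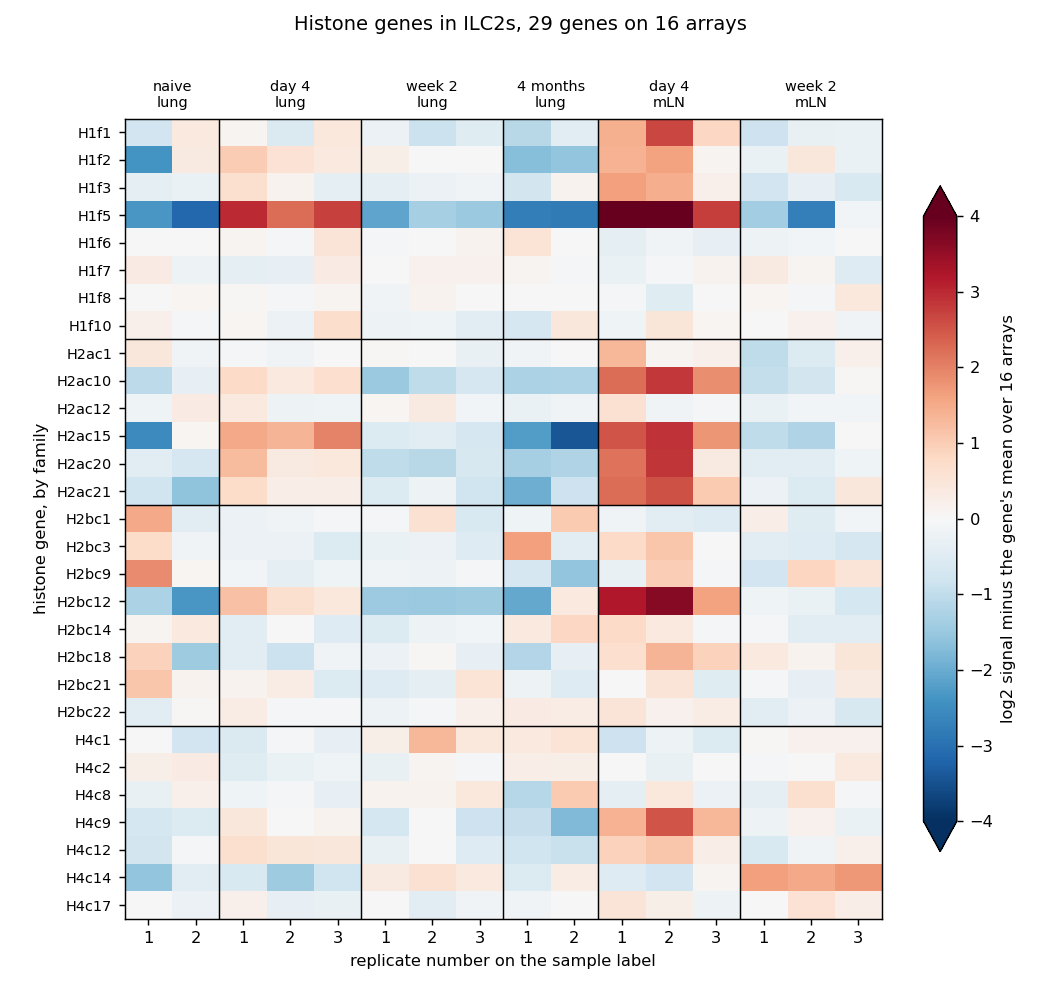
Heat map of the 29 histone genes (rows, by family) on the 16 arrays (columns, by group and replicate number). Colour is the log2 signal minus that gene's mean over all arrays, so colours compare arrays for a gene and not genes with each other. For H2ac10, H2bc12 and H4c9 all 3 day 4 mLN arrays lie above every other array, for H1f5 and H2ac15 replicate 3 of that group lies below the highest day 4 lung array, and H4c14 is highest on the week 2 mLN arrays.

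The 29 genes did not behave as a block. Over the 9 comparisons of the design, 16 of them (55.2%) were called at least once and 13 in none, beside 35.1% of all genes called at least once, and 8 ranged by more than 4 log2 units over the arrays. The 5 members known for expression in germ cells (the linker histones H1f6, H1f7 and H1f8, and H2ac1 and H2bc1) received 0 calls, with signals between 1.02 and 5.35. H1f10, a linker histone made independently of replication, also received 0 calls and stayed between 2.89 and 4.28. Of the members whose human counterparts can give polyadenylated messages, H1f2 was called in 2 comparisons and H2bc21 in 0.

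Day 4 against naive lung asks how ILC2s shortly after IL-33 differ from resting ones. At day 4, 7 of the 29 histone genes were higher and 1 was lower than in naive lung. Among all genes 10.8% were higher and 5.73% lower. The median change of the histone genes was 0.04, and that of all genes was -0.06. The genes that rose spanned all 4 families: H1f5 and H1f2 of H1, H2ac15, H2ac21 and H2ac10 of H2A, H2bc12 of H2B and H4c12 of H4.

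The linker histone gene H1f5 (formerly Hist1h1b), a replication-dependent H1, gave 3.83 and 3.03 in naive lung and 9.14, 8.41 and 8.90 at day 4. All day 4 arrays lay far above both naive arrays, and the rise was 5.39 ± 0.62 (SE, adjusted p = 3.18e-05). H2ac15 gave 2.74 and 5.35 in naive lung and 6.80, 6.65 and 7.27 at day 4. Its groups did not overlap, although the naive arrays spread more (SD 1.85) than the day 4 arrays (SD 0.32). It rose by 2.86 ± 0.56 (adjusted p = 0.00267), where the shared SE does not show the wide spread of the naive pair. H2bc12 gave 3.13 and 2.06 in naive lung and 5.56, 5.03 and 4.81 at day 4, again without overlap, and rose by 2.54 ± 0.58 (adjusted p = 0.00774). These 3 genes code for H1, H2A and H2B proteins; no other of the 29 had a larger change in this comparison. H2ac21 rose by 1.63 ± 0.42 (adjusted p = 0.015) and H2ac10 by 1.29 ± 0.33 (adjusted p = 0.0129). H1f2 gave 4.23 and 7.0 in naive lung and 7.66, 7.22 and 7.03 at day 4, so naive replicate 2 lay just under the lowest day 4 array. Its rise was 1.69 ± 0.56 (adjusted p = 0.0467).

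The H4 genes had smaller changes. H4c12 gave 8.38 and 9.05 in naive lung and 9.76, 9.58 and 9.54 at day 4, and rose by 0.91 ± 0.28 (adjusted p = 0.0324). H4c2, dim on all arrays (1.38 to 2.27), was the 1 gene that fell, by 0.60 ± 0.20 on the log2 scale (adjusted p = 0.0475). The 21 genes not called ranged from -1.21 (H2bc9) to 1.23 (H2ac20) in this comparison. H1f5 and H2ac15 were called whichever array was left out, at changes of 4.99 to 5.78 and of 1.56 to 4.17. The count of called genes was 8 with all arrays, 4 without naive replicate 1 or without day 4 lung replicate 1, and 5 without day 4 lung replicate 2 or 3. With quantile normalization repeated it was 3, with array weights 3, and with the 5 arrays of these groups fitted alone 5. H1f2 and H4c12 lost their calls in 4 of 5 omissions each, those of naive replicate 1 and of any 1 day 4 array, at changes down to 0.31 (adjusted p = 0.705) and 0.58 (adjusted p = 0.26) without naive replicate 1. H2ac10 lost its call without naive replicate 1 (0.93, adjusted p = 0.126), and H2bc12 without naive replicate 2 (2.00, adjusted p = 0.0753). H2ac21 lost its call without naive replicate 2 (1.23, adjusted p = 0.127) or day 4 lung replicate 1 (1.47, adjusted p = 0.0577). H4c2 lost its call when any 1 array of the comparison was left out. Other markers differed between these groups too: at day 4, 7 of 10 T cell, 3 of 6 NK cell and 1 of 7 B cell markers were lower and 3 of 12 macrophage markers higher, and of 10 ILC2 markers 4 were higher and 1 lower. Without the lung arrays highest in those macrophage markers (replicates 1 and 2 of day 4, replicate 3 of week 2), 2 genes were called, H1f5 and H2ac15. That fit left 1 day 4 lung array, so a call kept or lost in it does not set these genes apart. The part of other cells in any of the changes, kept or lost, was not tested.

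**Figure D2:**
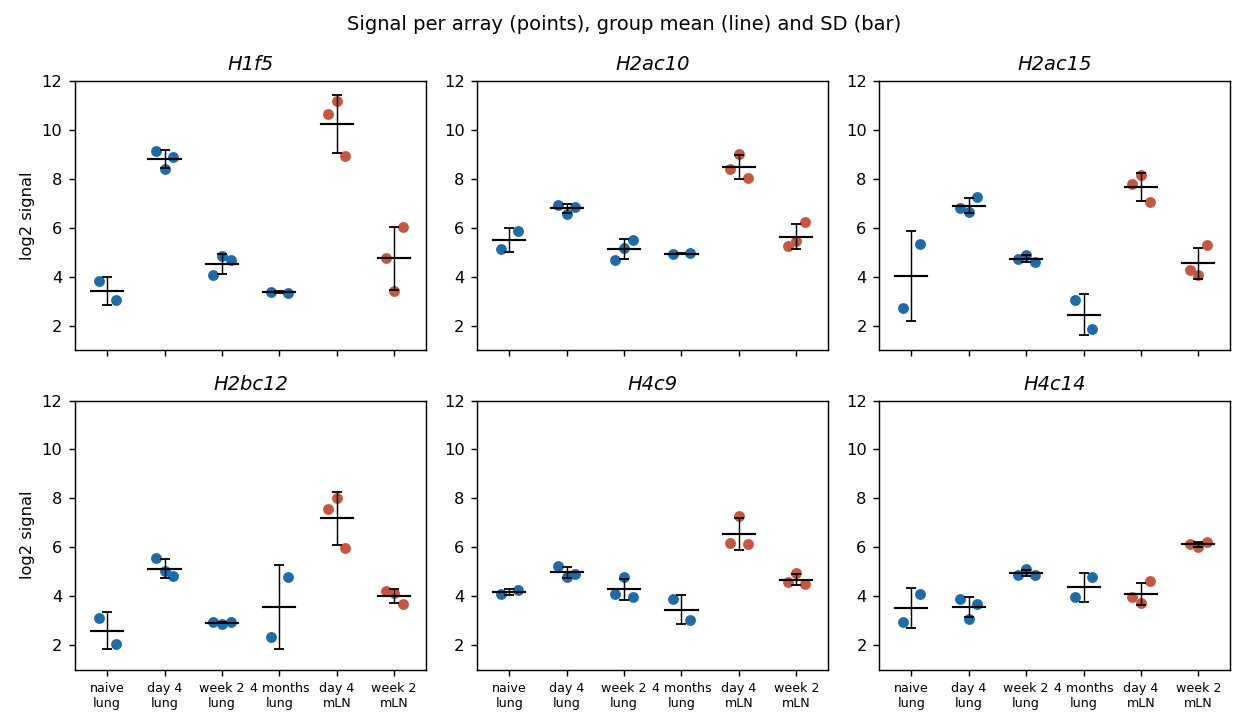
Log2 signal of 6 histone genes on each array (points, lung in blue and mLN in red), with the group mean (line) and the SD (bar). Panels are compared across groups and not with each other. For H1f5 the day 4 lung arrays lie between 8.41 and 9.14 and the day 4 mLN arrays between 8.93 and 11.18, above every array of the other groups.

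Week 2 against naive lung asks what remained of the response. By week 2 after IL-33, 2 histone genes were higher than in naive lung and 0 were lower. All genes gave 6.75% higher and 2.87% lower (9.62% in all), so the histone share of 6.9% higher was near that of all genes. The median change was 0.04 for the histone genes and -0.04 for all genes. Both of the called genes code for H4. H4c14 (formerly Hist2h4, of the small cluster on chromosome 3) gave 2.93 and 4.09 in naive lung and 4.86, 5.11 and 4.89 at week 2. It rose by 1.44 ± 0.34 (adjusted p = 0.0137) with no overlap. H4c1 gave 4.22 and 3.44 in naive lung and 4.45, 5.54 and 4.62 at week 2, where the arrays of the groups came close but did not overlap, and rose by 1.04 ± 0.30 (adjusted p = 0.0362). H1f5, by contrast with its level at day 4, was at 4.07, 4.85 and 4.69 and differed from naive lung by 1.11 ± 0.62 (adjusted p = 0.271). With array weights, or with the 5 arrays of these groups fitted alone, 0 histone genes were called, so both H4 calls were lost. The count was 5 without naive replicate 2, and 1 without week 2 lung replicate 2 or 3. Without naive replicate 1 the change of H4c14 was 0.86 (adjusted p = 0.15), and without naive replicate 2 that of H4c1 was 0.65 (adjusted p = 0.263). H4c1 also lost its call without week 2 lung replicate 2 (0.70, adjusted p = 0.136) or replicate 3 (1.16, adjusted p = 0.051). Of the 10 T cell markers 6 were lower at week 2 than in naive lung, of 10 ILC2 markers 2 were higher, and of 6 epithelial markers 1 was higher; their part was not tested.

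At 4 months after IL-33, 0 of the 29 histone genes were called against naive lung by limma, where 0.717% of all genes were higher and 1.25% lower, and 6 histone genes (20.7%) had an unadjusted p under 0.05, beside 17% of all genes. Their median change was -0.11, against -0.02 for all genes. H1f5 was at 3.40 and 3.34, beside 3.83 and 3.03 in naive lung. H2ac15 was at 3.04 and 1.88, a change of -1.59 ± 0.61 (adjusted p = 0.192). The most negative change was that of H2bc9, which gave 6.53 and 4.73 in naive lung and 3.97 and 3.07 at 4 months, a difference of -2.11 ± 0.55 (adjusted p = 0.0572). Without naive replicate 1 or without naive replicate 2 the count was 2. Of the 10 T cell markers, 5 were lower at 4 months than in naive lung.

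Week 2 against day 4 in the lung asks how far the early state had passed. In the lung, 4 histone genes were lower and 1 was higher at week 2 than at day 4. Of all genes 1.39% were lower and 0.419% higher. The median change was -0.07 for the histone genes and 0.01 for all genes. H1f5 fell by 4.28 ± 0.55 on the log2 scale (adjusted p = 0.000387), from a mean of 8.82 ± 0.37 (SD, n = 3) to 4.54 ± 0.41 (SD, n = 3). H2ac10 gave 6.95, 6.58 and 6.85 at day 4 and 4.70, 5.17 and 5.52 at week 2, and fell by 1.67 ± 0.29 (adjusted p = 0.00456). Each week 2 array was below each day 4 array for both genes. H2bc12 fell by 2.21 ± 0.52 (adjusted p = 0.0383) to 2.94, 2.89 and 2.95. H2ac15 fell by 2.17 ± 0.50 (adjusted p = 0.0341) to 4.73, 4.88 and 4.61. H4c14 went the other way: its day 4 arrays gave 3.88, 3.08 and 3.69, all under the week 2 arrays given above, and it rose by 1.40 ± 0.30 (adjusted p = 0.022).

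Just outside the threshold were H2ac20 (-1.60 ± 0.42, adjusted p = 0.0732) and H4c1 (0.99 ± 0.26, adjusted p = 0.0748). The 24 genes not called lay between -1.60 and 0.99. H1f5 and H2ac10 were called whichever array was left out, while H2ac15 and H2bc12 lost their calls in each of the 6 omissions, at changes of -2.29 to -1.99 and -2.37 to -2.0. H4c14 lost its call without day 4 lung replicate 2 (1.17, adjusted p = 0.139) and without any 1 of the week 2 lung arrays (1.33 to 1.45, adjusted p = 0.066 to 0.105). The count of called genes was thus 3 without day 4 lung replicate 1 or 3 and 2 without any other array. With array weights, or with the 6 arrays of these groups fitted alone, 8 genes were called, and with quantile normalization repeated 2 were. Without the 3 lung arrays high in macrophage markers the count was 0, with H1f5 at -4.44 (adjusted p = 0.0742) and only 1 day 4 array left. The 12 macrophage markers had a median change of -0.64 between these groups, with 0 of them called, and 1 of 7 B cell markers was higher at week 2. Their part in the result was not tested.

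At 4 months, 8 histone genes were lower and 2 higher in the lung than at day 4, beside 16.6% lower and 9.02% higher among all genes. The median was -0.27 for the histone genes and 0.04 for all genes. In the H1 family H1f5 fell by 5.45 ± 0.62 (adjusted p = 2.65e-05) and H1f2 by 2.30 ± 0.56 (adjusted p = 0.00719). H1f2 gave 4.94 and 5.07 at 4 months, against 7.03 or more on each day 4 array. Of the 6 H2A genes, 4 fell: H2ac15 by 4.45 ± 0.56, H2ac20 by 1.95 ± 0.47, H2ac10 by 1.86 ± 0.33 and H2ac21 by 1.81 ± 0.42. In the H4 family H4c9 fell by 1.52 ± 0.34 and H4c12 by 1.36 ± 0.28. The H2B family held no called fall; H2bc12 gave 2.34 and 4.78 at 4 months, and its change of -1.57 ± 0.58 had an adjusted p of 0.0576. The genes that rose were the dim H2bc14 (0.92 ± 0.25, adjusted p = 0.0154) and H4c2 (0.57 ± 0.20, adjusted p = 0.0426). Without 4-month replicate 1, H1f2 (adjusted p = 0.0671), H2ac20 (0.069) and H2ac21 (0.135) lost their calls, and without 4-month replicate 2, H2bc14 (0.106) and H4c9 (0.053) did. H4c2 lost its call in 4 of 5 omissions. With quantile normalization repeated, H4c12, H2bc14 and H4c2 lost their calls. With array weights, H2ac20, H2bc14 and H4c2 did. Without the 3 lung arrays high in macrophage markers 3 genes were called. Of the markers, 5 of 6 NK cell markers (median change 0.94) and 2 of 7 B cell markers were higher at 4 months, and 2 of 12 macrophage, 1 of 10 T cell, 1 of 6 mast cell and basophil and 1 of 6 epithelial markers were lower. Of 10 ILC2 markers 3 were lower and 1 higher. Their part in the histone changes was not tested. These comparisons and the one with naive lung share the day 4 lung arrays, so their values are not independent of each other.

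In the lymph node 10 of the 29 genes were lower at week 2 than at day 4 and 1 was higher. Of all genes 1.18% were lower and 0.528% higher. The median change was -0.68 for the histone genes and -0.00 for all genes. Genes that fell were found in every family: 3 of 8 in H1, 4 of 6 in H2A, 2 of 8 in H2B and 1 of 7 in H4.

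H1f5 gave 10.64, 11.18 and 8.93 in the node at day 4 and 4.77, 3.44 and 6.04 at week 2. The groups lay far apart although each spread over more than 2 units, and the fall was 5.50 ± 0.55 on the log2 scale (adjusted p = 8.62e-06). Other linker histone genes that fell were H1f1, from 4.15, 5.41 and 3.56 to 1.93, 2.44 and 2.49 (by 2.09 ± 0.40, adjusted p = 0.00818), and H1f3, from 5.37, 5.18 and 3.94 to 2.98, 3.40 and 3.14 (by 1.66 ± 0.33, adjusted p = 0.00924). For both, day 4 replicate 3 was the lowest day 4 array and still above every week 2 array.

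Among H2A genes, H2ac10 gave 8.41, 9.0 and 8.04 at day 4 and 5.25, 5.45 and 6.24 at week 2, and fell by 2.84 ± 0.29 (adjusted p = 1.07e-05). H2ac15 gave 7.79, 8.17 and 7.06 at day 4 and 4.27, 4.08 and 5.28 at week 2, and fell by 3.13 ± 0.50 (adjusted p = 0.00148). Neither gene had overlapping groups, and both were called whichever array was left out. The neighbours H2ac20 and H2ac21 on chromosome 3 fell by 2.15 ± 0.42 (adjusted p = 0.00956) and 2.06 ± 0.38 (adjusted p = 0.00522). H2ac20 gave 7.45, 8.12 and 5.63 at day 4, so its replicate 3 came close to the week 2 arrays (4.81, 4.83 and 5.11). Among H2B genes, H2bc12 gave 7.59, 8.03 and 5.97 at day 4 and 4.21, 4.13 and 3.67 at week 2, and fell by 3.19 ± 0.52 (adjusted p = 0.00186). The dim H2bc22 fell by 0.77 ± 0.19 (adjusted p = 0.0449), a call that was lost in each of 6 omissions and with the replicate number as a block (adjusted p = 0.0689).

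H4 genes divided in direction. H4c9 gave 6.17, 7.30 and 6.14 at day 4 and 4.58, 4.95 and 4.52 at week 2, and fell by 1.85 ± 0.30 (adjusted p = 0.00188). H4c14 gave 3.98, 3.74 and 4.62 at day 4 and 6.15, 6.02 and 6.23 at week 2, and rose by 2.02 ± 0.30 (adjusted p = 0.000768). No array of either group crossed into the other for these genes. All values of H4c14 come from 1 probe set with that symbol alone. Shared H4 probe sets of 13 symbols list it too, and no gene can be named from them. Their node means at day 4 and week 2 were 3.37 and 3.56, 4.31 and 4.33, 1.96 and 1.63, and 2.96 and 1.96. H4c12, the H4 gene of the highest mean signal, was at 10.02, 10.20 and 9.38 and then at 8.49, 8.96 and 9.30, a change of -0.95 ± 0.25 (adjusted p = 0.0688). The 18 genes not called ranged from -1.16 (H2bc3, the H2B gene with the highest mean) to 0.66 (H4c1). Calls of H1f1, H1f3 and H2ac20 were lost without day 4 mLN replicate 2, at changes of -1.57 (adjusted p = 0.05), -1.48 (0.0745) and -1.62 (0.0639), and H1f3 and H2ac20 also without replicate 1 (-1.39 and -1.96). Without week 2 mLN replicate 1, H1f1 (adjusted p = 0.0529) and H1f3 (0.0525) lost theirs, and H2ac20 (0.0525) did without replicate 2. None of the 10 T cell and 12 macrophage markers was called between these node groups, and 1 of 6 mast cell and basophil markers was lower at week 2.

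The 4 genes that fell in the lung between day 4 and week 2 (H1f5, H2ac10, H2ac15 and H2bc12) were 4 of the 10 that fell in the node, and H4c14 rose in both tissues. In the lung, the calls of H1f5 and H2ac10 held in every omission of 1 array, and those of H2ac15, H2bc12 and H4c14 did not. The share of all genes called in both tissues was not computed. Whether the change from day 4 to week 2 differed between the tissues was tested as an interaction. By limma 0 of the 29 genes were called, where 0.0676% of all genes were called with a higher change in the node and 0.113% with a lower one, and 8 histone genes (27.6%) had an unadjusted p under 0.05, beside 6.38% of all genes. The change was more negative in the node for 22 of the 29 genes, with a median difference of -0.48, against -0.01 for all genes. H2ac10 had a difference of -1.17 ± 0.41 (adjusted p = 0.504) and H1f5 one of -1.22 ± 0.78 (adjusted p = 0.905). The 22 genes share arrays, so their common direction is not 22 separate observations.

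**Figure D3:**
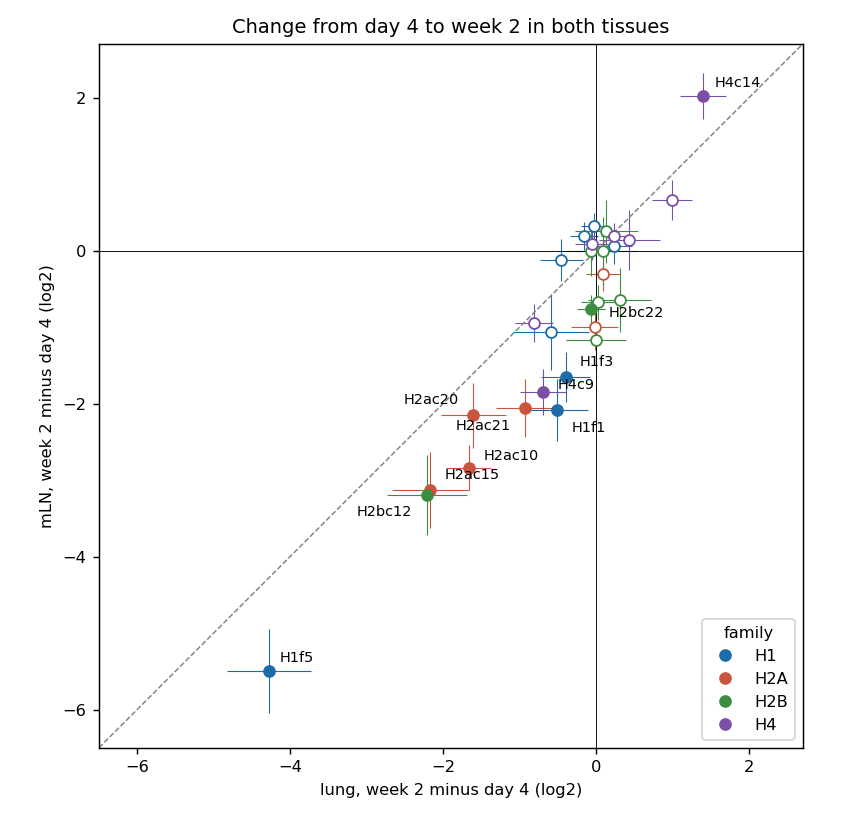
Change from day 4 to week 2 in log2 signal of the 29 histone genes, in lung (x axis) and mLN (y axis), coloured by family, with SE bars. Filled points were called in the mLN, and the dashed line marks equal change. H1f5 lies farthest from 0 (-4.28 in lung and -5.50 in mLN), and H4c14 is the called gene above 0 in both tissues (1.40 and 2.02).

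Node against lung at the same time asks how ILC2s of the draining node differ from those of the lung. At day 4, 5 histone genes were higher in the node and 0 were lower, beside 0.978% higher and 1.35% lower among all genes. The median difference was 0.43 for the histone genes and 0.01 for all genes, and 24 of the 29 lay above 0. H2ac10, at 8.41, 9.0 and 8.04 in the node and 6.95, 6.58 and 6.85 in the lung, was higher by 1.69 ± 0.29 (adjusted p = 0.0031). H4c9, at 6.17, 7.30 and 6.14 in the node and 5.24, 4.77 and 4.92 in the lung, was higher by 1.56 ± 0.30 (adjusted p = 0.00844). Neither gene's groups overlapped. H2bc12 was higher by 2.06 ± 0.52 (adjusted p = 0.0476), H1f1 by 1.64 ± 0.40 (adjusted p = 0.0392) and H2ac21 by 1.53 ± 0.38 (adjusted p = 0.0411), also without overlap. H1f5, the gene with the largest fall afterwards, overlapped between the tissues, since node replicate 3 (8.93) lay below lung replicate 1 (9.14), and its difference was 1.43 ± 0.55 (adjusted p = 0.295).

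H2ac10 was called in all 6 omissions of 1 array. H4c9 lost its call without node replicate 2 (1.18, adjusted p = 0.0548). H1f1, H2ac21 and H2bc12 lost theirs in 4, 5 and 5 of the 6 omissions, and H2ac21 also with the replicate number as a block. The count was 1 without node replicate 2, 2 without node replicate 1 or without lung replicate 1 or 2, 3 without lung replicate 3 and 7 without node replicate 3. It was 2 with quantile normalization repeated and 3 with the 6 arrays of these groups fitted alone. Of the 12 macrophage markers 3 were lower in the node than in the lung at day 4 (median of the 12 -1.07), 1 of 10 ILC2 markers was lower and 1 of 7 B cell markers was higher. Without the 3 lung arrays high in those markers, which left 1 lung array at day 4, the count was 0, with H2ac10 at 1.63 (adjusted p = 0.117), H4c9 at 1.62 (0.159) and H2bc12 at 2.38 (0.303). At week 2, 0 histone genes were called by limma between node and lung, where 0.334% of all genes were higher and 0.446% lower, and 3 (10.3%) had an unadjusted p under 0.05, beside 9.55% of all genes. H4c14 was the nearest, higher in the node by 1.18 ± 0.30 (adjusted p = 0.0937) without overlap of the groups. H2bc12, at 4.21, 4.13 and 3.67 in the node and 2.94, 2.89 and 2.95 in the lung, differed by 1.08 ± 0.52 (adjusted p = 0.536).

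**Figure D4:**
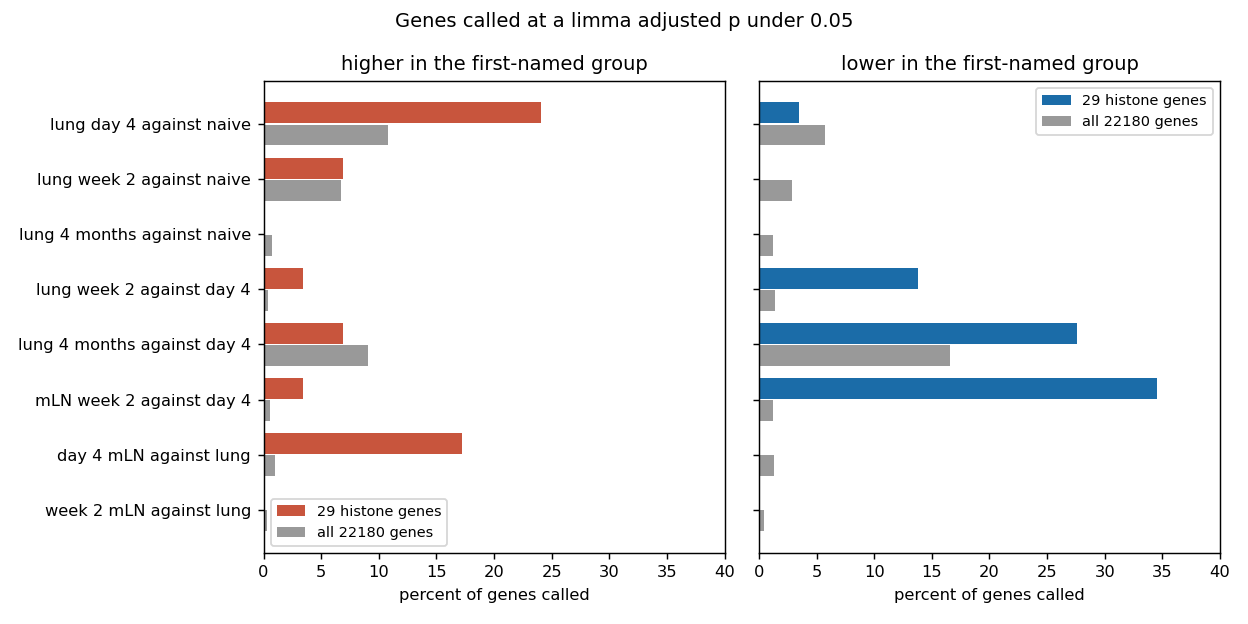
Percent of the 29 histone genes (coloured bars) and of all 22180 genes (grey bars) called higher (left) or lower (right) in the first-named group of each comparison, at a limma adjusted p under 0.05. In the mLN from day 4 to week 2, 34.5% of the histone genes and 1.18% of all genes were lower.

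Many histone genes are so alike that the arrays do not separate them, and 37 further histone symbols occurred only on probe sets annotated to several genes. There were 38 such probe sets with 35 distinct profiles, and they were tested among 25335 probe sets with 1 or several symbols. No gene can be named from them, and a probe set with 1 symbol may also bind messages of close relatives, which was not tested. At day 4 against naive lung 11 of the 35 were higher and 2 lower, where 16.9% of all these probe sets were called. At week 2 against naive lung 2 of the 35 were higher and 0 lower (9.78% of all called). In the lung 6 of 35 were lower at week 2 than at day 4 (1.7% of all called) and in the node 10 of 35 were lower (1.69% of all called), with 0 higher in either. At day 4, 6 were higher and 1 lower in the node than in the lung (2.14% of all called).

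An H2A probe set of 10 symbols gave 7.70, 7.90 and 6.45 in the node at day 4 and 1.29, 1.67 and 2.33 at week 2, and fell by 5.59 ± 0.31 (adjusted p = 4.49e-08). On the lung arrays it gave 5.51, 5.13 and 5.04 at day 4 and between 1.41 and 1.86 in the other lung groups. It was thus high only on the day 4 arrays of both tissues, with no overlap with any other array. Other H2A probe sets with the same 10 symbols moved less. Their node means went from 9.31 to 6.40, 6.25 to 2.87 and 3.40 to 2.77 by week 2. The rest went from 3.37 to 2.24, 3.10 to 2.24 and 5.75 to 5.17. At day 4 against naive lung their changes ran from -0.99 to 1.53, beside 3.38 for the probe set above. An H2B probe set of 4 symbols fell in the node by 2.76 ± 0.19 (adjusted p = 2.48e-07), from 11.55, 11.83 and 11.12 to 8.41, 8.81 and 9.0. Node means of the other H2B probe sets with the same 4 symbols went from 4.77 to 4.11 and from 6.00 to 4.16. The 12 distinct H3 probe sets did not move in 1 direction. At day 4 against naive lung, 2 H3 probe sets of 8 symbols rose by 1.41 ± 0.26 and 1.58 ± 0.33, and another with the same 8 symbols fell by 1.21 ± 0.32. These H3 probe sets share their annotated genes, so the difference in sign lies between probe sets and cannot be assigned to a gene.

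Of 22 listed genes of histone transcription and message processing, 1 fell from day 4 to week 2 in each tissue (4.55%), beside 1.18% of all genes lower in the node and 1.39% in the lung. Slbp, which binds the stem loop, gave 7.17, 7.34 and 7.01 in the node at day 4 and 6.59, 6.59 and 6.58 at week 2, a change of -0.58 ± 0.17 (adjusted p = 0.119). Npat, the coactivator of the histone loci, changed there by -0.10 ± 0.18 (adjusted p = 0.975). At day 4 against naive lung the changes were 0.30 ± 0.19 for Slbp (adjusted p = 0.29) and 0.28 ± 0.20 for Npat (adjusted p = 0.367). Both were lower at 4 months than at day 4, by -0.64 ± 0.19 (adjusted p = 0.0207) and -0.68 ± 0.20 (adjusted p = 0.0228). Of the 22 listed genes, 6 (27.3%) were higher and 0 lower at day 4 than in naive lung, beside 10.8% of all genes higher. Among the 6 were Nfyb, a subunit of NF-Y (1.22 ± 0.39), and Lsm10, a part of the U7 particle (0.84 ± 0.21). In the node 1 of the 22 fell from day 4 to week 2: Mybl2, a transcription factor of dividing cells (-1.07 ± 0.19, adjusted p = 0.00437). In the lung the 1 that fell over the same time was Lsm10 (-0.83 ± 0.19, adjusted p = 0.0298).

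Among 22 histone chaperones, 7 (31.8%) were higher and 0 lower at day 4 than in naive lung, beside 10.8% of all genes higher. Those higher were led by Daxx (1.58 ± 0.21) and Hat1 (1.45 ± 0.28), which acetylates new H4. From day 4 to week 2 in the node 3 fell: Chaf1a, the large subunit of the assembly factor that follows the replication fork (-1.89 ± 0.19, adjusted p = 9.08e-06), Asf1b (-1.80 ± 0.25) and Mms22l (-0.77 ± 0.19). In the lung Chaf1a (-1.16 ± 0.19) and Asf1b (-1.11 ± 0.25) fell with Daxx (-0.94 ± 0.19). Of 7 replication-independent histone variants, 1 was called in the node, the centromeric H3 variant Cenpa (-1.68 ± 0.22, adjusted p = 0.000232), and Cenpa was also the 1 called in the lung (-1.29 ± 0.22, adjusted p = 0.00421).

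Cell cycle genes were also called between these groups. Of all genes 10.8% were higher at day 4 than in naive lung. From day 4 to week 2, 1.39% of all genes were lower in the lung and 1.18% in the node. Of 32 S phase genes, 17 were higher and 0 lower at day 4 than in naive lung. From day 4 to week 2, 6 of them were lower in the lung and 15 in the node, with 0 higher. The median changes of this list were 0.75, -0.36 and -0.89. Rrm2, a subunit of ribonucleotide reductase, gave 8.67, 9.20 and 8.24 in the node at day 4 and 5.64, 5.34 and 5.03 at week 2, and fell by 3.36 ± 0.30 (adjusted p = 2.73e-06). Pcna, the sliding clamp of replication, was between 8.99 and 9.84 on every array and was not called in the node (-0.28 ± 0.15, adjusted p = 0.652). Of 20 genes of G2 and mitosis, 18 were higher at day 4 than in naive lung, 16 fell in the lung by week 2 and all 20 fell in the node. At day 4, all 20 of these and 9 of the 32 S phase genes were higher in the node than in the lung (0.978% of all genes). At 4 months, 19 of the 20 and 24 of the 32 were lower in the lung than at day 4 (16.6% of all genes). Mki67, a marker of dividing cells, gave 9.26, 9.76 and 9.54 in the node at day 4 and 6.20, 6.16 and 6.13 at week 2 (-3.36 ± 0.22, adjusted p = 7.48e-08). Its lung values were 5.47 and 4.87 in naive mice, 8.34, 7.84 and 7.97 at day 4 and 5.90, 5.96 and 5.42 at week 2. Top2a, which untangles DNA in dividing cells, fell by 3.09 ± 0.28 in the node and by 1.86 ± 0.28 in the lung. The part of the number of dividing cells in the histone changes was not tested.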

How the data were processed

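RNA extracted with Trizol was labelled with a Nugen Encore biotin kit, per the labels' protocols; how that kit primes messages without a poly(A) tail is not stated there. The authors deposited log2 signals for each probe set and array. Per the submitters' processing notes these came from Affymetrix Expression Console with RMA, whose version, like the genome build, is not given in the sources used here. RMA scales arrays to each other before probe sets are summarised, so total RNA per cell cannot be read from it; the deposited values still differed in spread between arrays. Background and detection were not reassessed, as no scanner files were used.

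Of 41345 probe sets, 23521 had 1 gene symbol, 1814 several and 16010 none, and 23328 were matched to RefSeq by Entrez identifier. For the 1082 genes with several probe sets, the one with the highest mean was used. Each of 6 group means was fitted to all 16 arrays with limma 3.58.1 in R 4.3.3 (10 residual and 6.52 prior degrees of freedom), two-sided, with no block and no filter, and p values were adjusted over 22180 genes by Benjamini-Hochberg. The fit was tested on simulated data. Promoters came from RefSeq (27 of 29 members matched); matplotlib 3.10.9 (Python 3.11.15) drew the figures.

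The members and gene lists were chosen with earlier results of these data known. Named genes are, per comparison, up to 8 called members with the largest change, the brightest member of each family, the members of 3 small classes, up to 4 called genes per list, and Slbp, Npat, Mki67, Pcna and Top2a; members near the threshold, and calls beyond these, were named after their values were seen. Alternatives were centred array medians, repeated quantile normalization, a filter on dim genes, array weights, a fit restricted to the groups compared, the replicate number as a block, means of probe sets, and leaving out each array; those chosen after seeing the data were the 12 arrays of the larger groups alone, a fit without 3 lung arrays, the members on chromosomes 13 and 3 alone and a fit that included shared probe sets.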

Additional observations from a re-analysis of the deposited data

How the results depend on the processing

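Of the 41 called changes, 12 were called under every alternative that could be fitted to them, and 0 reversed. Calls lost were 4 with array medians centred, 14 with quantile normalization repeated, 10 with array weights, 10 with only the groups compared, 1 with means of probe sets and 2 with the replicate number as a block; 0 of 37 were lost without dim genes and 0 of 21 with 12 arrays. Without 3 lung arrays (replicates 1 and 2 of day 4, replicate 3 of week 2), an alternative chosen after seeing the data, 25 of 30 were lost, with fewer arrays in each fit. For the other settings the cause was not tested. Correlations of the deviations of same-numbered arrays ran from -0.10 to 0.18, and with so few arrays they do not settle whether samples were paired. Between lung and node at day 4 they were 0.092, 0.0285 and 0.18 for replicates 1, 2 and 3. The highest with another number were 0.0925, 0.0231 and -0.0955. With the replicate block the calls lost were H2bc22 in the node over time (adjusted p = 0.0689) and H2ac21 in the node against the lung at day 4 (adjusted p = 0.059).

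Counts of called histone genes with quantile normalization repeated were 3 for day 4 against naive lung, 1 for 4 months against naive, 2 for week 2 against day 4 in the lung and 2 for node against lung at day 4. With array weights they were 3, and 0 for week 2 against naive, 8 for week 2 against day 4 in the lung and 1 for node against lung at week 2. With only the groups compared they were 5, 0, 8 and 2 for the same 4 comparisons and 3 for node against lung at day 4. With medians centred, and without dim genes, 4 months against naive gave 1. With 12 arrays, node against lung at week 2 gave 1. Without the 3 lung arrays the counts were 2 (day 4 against naive), 0 (week 2 against naive), 0 (week 2 against day 4 in the lung), 3 (4 months against day 4) and 0 (node against lung at day 4). A gene counted as dim only if no group mean reached the limit, so members stayed through the group where they were high; the medians without the 8 dim members support nothing and were -0.45 (week 2 against day 4 in the lung), -0.76 (4 months against day 4), -1.07 (week 2 against day 4 in the node), 0.77 (node against lung at day 4) and -0.96 (interaction).

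Leaving out each array gave counts of 4 to 8 and medians of 0.0168 to 0.27 for day 4 against naive lung, 1 to 5 and -0.07 to 0.07 for week 2 against naive, and 0 to 2 and -0.35 to -0.0127 for 4 months against naive. It gave 2 to 3 and -0.18 to -0.02 for week 2 against day 4 in the lung, 7 to 10 and -0.45 to -0.09 for 4 months against day 4, and 8 to 12 and -0.79 to -0.61 for the node over time. For node against lung the ranges were 1 to 7 and 0.28 to 0.56 at day 4 and 0 to 0 and -0.02 to 0.21 at week 2, and for the interaction 0 to 0 and -0.71 to -0.19. Signals near background could not be separated from it without scanner files, which bears on the 8 dim members.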

Other observations

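At 4 months against naive lung, where 0 histone genes and 1.25% of all genes were called lower, 3 of 22 genes of histone transcription and message processing were lower and 0 higher (median of the list -0.27): Lsm10, a part of the U7 particle (-0.97 ± 0.23, adjusted p = 0.0398), Cpsf2, a part of the cleavage complex (-0.90 ± 0.22, adjusted p = 0.0495), and Nfyc, a subunit of NF-Y (-0.86 ± 0.18, adjusted p = 0.0225). Of 22 histone chaperones, 4 were lower (median -0.19), among them Mms22l (-1.29 ± 0.23, adjusted p = 0.0103) and Chaf1a (-1.20 ± 0.23, adjusted p = 0.0158). Chaf1a was also lower at week 2 than in naive lung (-1.12 ± 0.21, adjusted p = 0.00424), at 3.51, 3.41 and 3.40 against 4.54 and 4.60, while the chaperone Nap1l1 was higher (1.06 ± 0.19, adjusted p = 0.00259). Beside these values stand the T cell marker mean, 6.73 to 6.86 on the naive arrays and 5.26 to 5.36 at 4 months, and the narrower signal range of both groups; their part was not tested.

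Against the lung, the fall of 8 of 20 genes of G2 and mitosis from day 4 to week 2 was larger in the node, led by Ccna2 (interaction -2.48 ± 0.34, adjusted p = 0.00422) and Cenpf (-2.0 ± 0.25, adjusted p = 0.00251). The histone genes gave 0 calls in that test, and the S phase genes 0 of 32, where 0.18% of all genes were called. An unadjusted limma p under 0.05 was found for 27.6% of the histone genes and 6.38% of all genes. The 0 calls therefore do not show that the histone genes changed equally in both tissues.

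Day 4 mLN replicate 3 was lower than replicates 1 and 2 for H1f5 (8.93 beside 10.64 and 11.18), H2bc12 (5.97 beside 7.59 and 8.03), H2ac20 (5.63 beside 7.45 and 8.12) and the variant H2ax (7.70 beside 10.07 and 10.48). On the same array Mki67 lay between the other replicates (9.54 beside 9.26 and 9.76). H2bc3 was at 8.75 on 4-month replicate 1 and at 6.67 on replicate 2, and H2bc9 at 6.53 and 4.73 on the naive arrays. These genes were chosen after their values were seen.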
